A study of Mus musculus and Miniopterus natalensis with 16 samples.

Results

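The probes for Taok3, Syt13, Kpna3 and Casc1 were followed in the autopods of the Natal long-fingered bat, Miniopterus natalensis, as 4 of the 12656 distinct array features with values. Autopods are the hand and foot plates of the embryo. In bats the forelimb (FL) plate grows into a wing with long digits and kept webbing, whereas the hindlimb (HL) plate forms short digits. FL and HL autopods of 4 embryos at Carollia stage (CS) 17 and 4 at CS16, all from wild-caught females, were hybridised to 16 mouse oligonucleotide arrays. This gave 4 arrays for each of the CS17 FL, CS17 HL, CS16 FL and CS16 HL, each with the left and right limb of 1 embryo. Every array also held an aliquot of 1 pool of E13.5 mouse FL autopods from 24 embryos, with bat RNA in Cy3 and mouse RNA in Cy5 throughout. No group carried a treatment or an altered allele.

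The deposited table numbers its features and names none of them, so the gene names rest on a match. For each of 35 named probes that the study lists with their mean folds, features were sought whose CS16 FL over HL, CS17 FL over HL and CS17 FL over mouse folds all lay within 0.05 of the listed ones. Taok3 (probe M400001515), Syt13 (M300005520), Kpna3 (M300003019) and Casc1 (M400005885) each had exactly 1 row within that distance. The rows of the 4 genes were thus chosen by these 3 measured folds. The Taok3 values below are table row 14420's, the Syt13 values row 17392's, the Kpna3 values row 29068's and the Casc1 values row 18417's. The match read the values as log2 and turned their sign, which gave 33 of the 35 probes a row, against 4 with the sign as deposited, none of them among the 4 genes. A positive value is therefore read as more signal from bat than from mouse RNA. That reading is likely but was not settled. By the wording of the sample labels, higher and lower would change places for these rows, against the mouse and between the limbs. With that sign, however, the rows would not match the 4 genes. The 3 folds used for the match are given below as descriptions, with no test.

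The separation of the match differed between the genes. The largest of the 3 fold deviations was 0.0395 for the Taok3 row, 0.0454 for Syt13, 0.0361 for Kpna3 and 0.0489 for Casc1. The next closest row deviated by 0.0871 for Taok3, 0.118 for Kpna3, 0.261 for Syt13 and 0.392 for Casc1. The name of the Taok3 row was thus the least separated, with 4 rows within 0.1 and 17 within 0.2. Syt13 and Casc1 still had 1 row each within 0.2. None of the 4 rows shared its values with another row.

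The 4 genes have unrelated roles. Taok3 encodes a serine/threonine kinase of the TAO group within the Ste20 family, which acts upstream of MAP kinase pathways. Syt13 encodes a synaptotagmin, a membrane protein of vesicle traffic, and differs from classical synaptotagmins in that it does not bind calcium through its C2 domains. Kpna3 encodes an importin alpha, the adaptor that recognises nuclear localisation signals and passes cargo with importin beta into the nucleus. Casc1, first named for a lung cancer susceptibility locus, is now counted among genes of the axonemal dynein of motile cilia. Because the table names no probe, other members of these families and autopod markers beyond the matched listed probes were not analysed here.

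All 4 genes exceeded the mouse FL pool on every one of the 16 arrays, a pattern that 26.4% of all features showed. Taok3 had the lowest ratios. Its log2 ratios of bat over mouse were 1.45, 1.07, 1.38 and 1.00 in the CS17 FL (replicates 1 to 4), against 0.75, 0.59, 0.61 and 0.21 in the CS17 HL. At CS16 they were 0.44, 0.63, 0.29 and 0.75 in forelimbs, against 0.39, 0.56, 0.72 and 0.79 in hindlimbs. The CS17 FL stood above the other 3 groups without overlap, and those 3 groups overlapped each other.

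Syt13 had intermediate ratios and the largest mean difference between the CS17 limbs of the 4 genes. Its log2 ratios were 1.93, 1.74, 2.18 and 2.07 in CS17 forelimbs, against 1.32, 1.32, 0.88 and 0.32 in the CS17 HL. At CS16 they were 1.52, 1.85, 0.84 and 1.31 in the FL, against 1.04, 1.43, 2.01 and 1.91 in the HL. The CS17 FL and HL did not overlap, whereas the CS16 limbs did. Replicate 4 of the CS17 HL had the lowest value of all 16 arrays for Syt13, and also for Taok3, Kpna3 and Casc1.

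Kpna3 was high in 3 groups and low in only some arrays of the CS17 HL. Its log2 ratios were 2.09, 1.88, 2.23 and 2.21 in the CS17 FL, against 1.92, 1.79, 1.12 and 0.74 in the CS17 HL. At CS16 they were 2.12, 2.45, 1.89 and 2.50 in the FL, against 1.61, 2.10, 2.77 and 2.37 in the HL. Replicate 1 of the CS17 HL lay above the lowest CS17 FL array, so the CS17 limbs overlapped.

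Casc1 had the highest ratios of the 4 genes in every group. Its log2 ratios were 2.34, 2.04, 2.99 and 2.61 in the CS17 FL, against 1.78, 2.14, 1.39 and 1.31 in the CS17 HL. At CS16 they were 2.56, 2.26, 2.05 and 2.29 in the FL, against 2.48, 2.74, 2.82 and 2.41 in the HL. Replicate 2 of the CS17 HL lay above replicate 2 of the CS17 FL, and both stages showed overlap between the limbs. Ratios order the genes by difference from the mouse, not by amount of transcript, because probe brightness cancels only within a probe. The study lists a similarity to bat sequence for the Taok3 and Kpna3 probes, but gives none for Syt13 and Casc1. It assigned the Casc1 probe to its gene by a sequence search (Blat). Whether the Syt13 and Casc1 probes detect the bat transcripts was not tested.

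**Figure D1:**
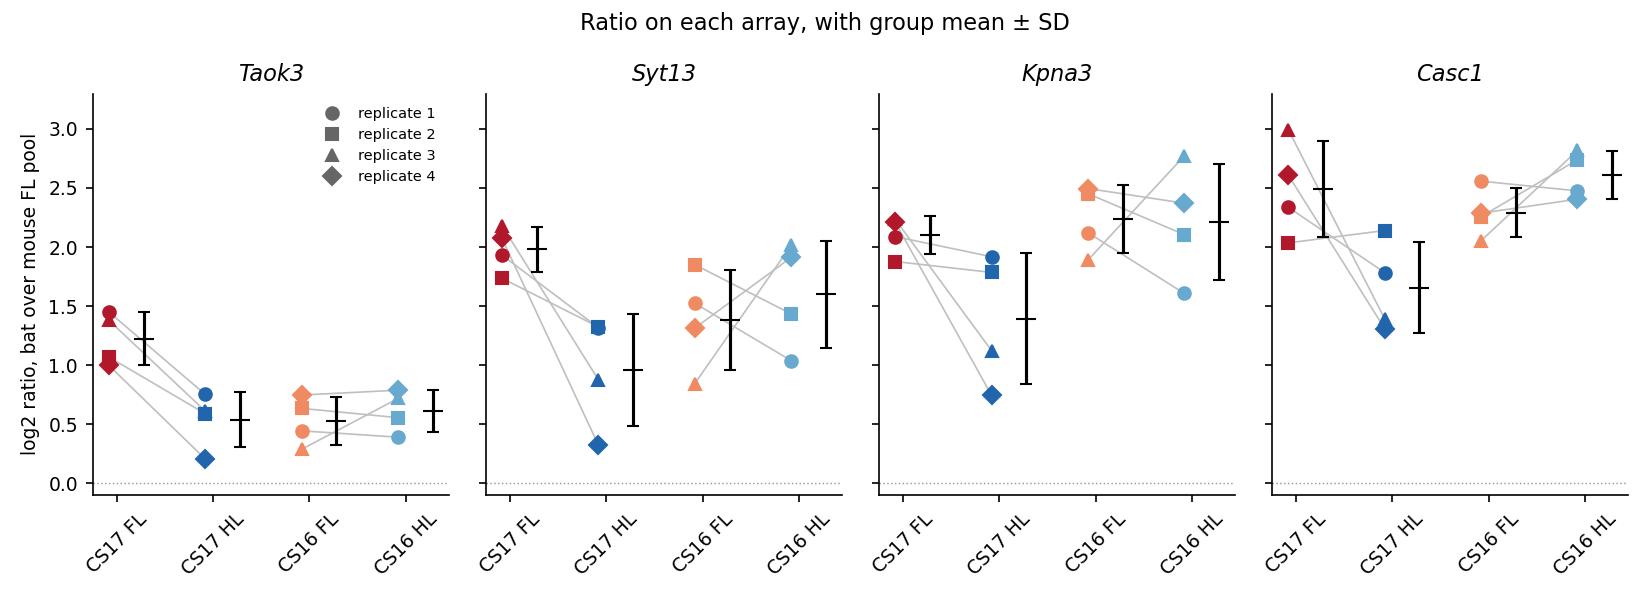
Log2 ratio of bat over mouse FL pool (vertical axis) on each of the 16 arrays for the 4 genes, with grey lines joining the FL and HL of an embryo and black bars giving the group mean ± SD (n = 4). Taok3 stands apart in the CS17 FL (1.00 to 1.45), whereas Syt13, Kpna3 and Casc1 have their lowest mean in the CS17 HL. Replicate 4 of the CS17 HL is the lowest array for all 4 genes.

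The CS17 limb difference was one of the values behind the match and is described here embryo by embryo. At each stage, FL and HL samples with the same replicate number came from the same embryo. Taok3 was higher in the FL by 0.70, 0.48, 0.77 and 0.79 on the log2 scale in embryos 1 to 4, a mean of 0.68 ± 0.14 (SD, n = 4) or 1.61-fold. Syt13 was higher by 0.61, 0.41, 1.30 and 1.75, a mean of 1.02 ± 0.62 (SD, n = 4) or 2.03-fold. Both genes were thus higher in the FL in 4 of 4 embryos, but by a narrow range for Taok3 and by a wide one for Syt13.

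Kpna3 and Casc1 had small differences in some CS17 embryos and large ones in others, each from a single array per limb. For Kpna3 the FL exceeded the HL by 0.17, 0.09, 1.11 and 1.47, a mean of 0.71 ± 0.68 (SD, n = 4) or 1.64-fold. For Casc1 the differences were 0.55, -0.10, 1.60 and 1.30, a mean of 0.84 ± 0.77 (SD, n = 4) or 1.79-fold, higher in the FL in 3 of 4 embryos. In all 4 genes, embryos 3 and 4 had the largest differences and embryo 2 the smallest. Without replicate 4 the means were 0.65 for Taok3, 0.78 for Syt13, 0.46 for Kpna3 and 0.68 for Casc1, so Kpna3 kept less than a 1.5-fold difference. Without replicate 3 the means were 0.577 for Kpna3 and 0.583 for Casc1, both just under 1.5-fold, and those of Taok3 and Syt13 stayed above it. Replicate 4 of the CS17 HL was also the array with the lowest median log2 ratio over all features (-0.17, against -0.13 to -0.04 on the other 15) and its mean correlation with the other arrays of its group was also the lowest (0.908). Centring each array on its median left the CS17 limb differences at 0.65, 0.98, 0.67 and 0.80 in the same order of genes, and the part of that array in the differences was not tested further.

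**Figure D2:**
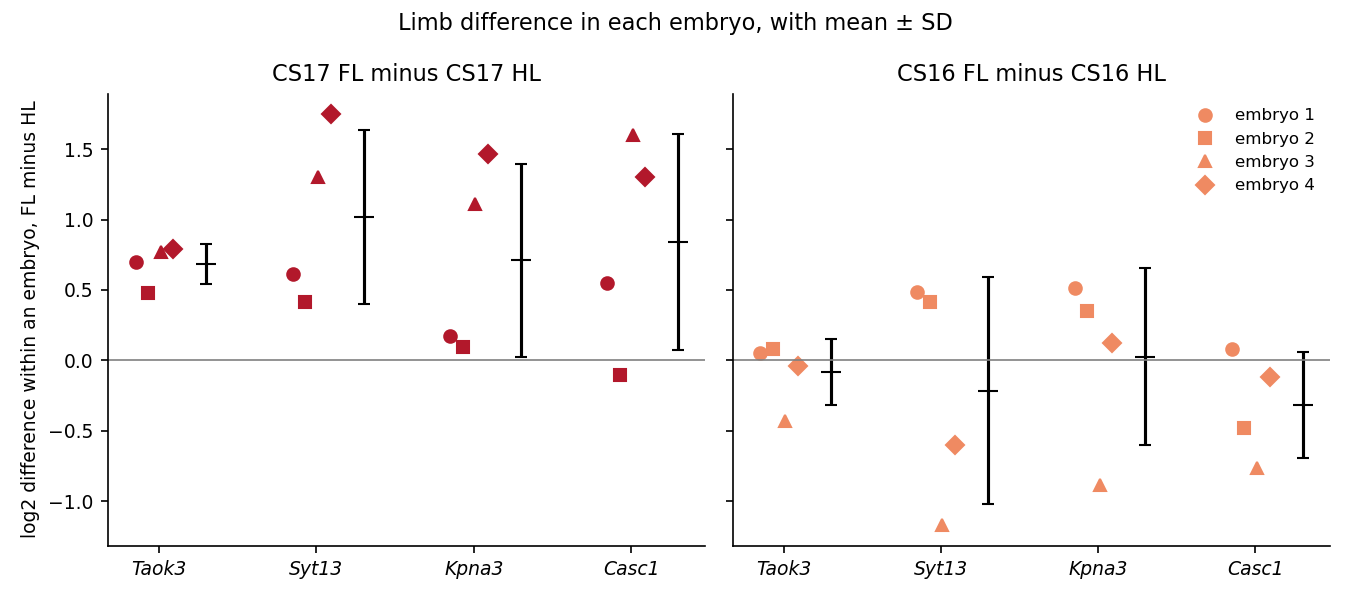
Log2 difference between FL and HL within each embryo (vertical axis, FL minus HL) at CS17 and CS16, with the mean ± SD over 4 embryos beside the points. At CS17 the Taok3 points lie close together (0.48 to 0.79), whereas those of Kpna3 (0.09 to 1.47) and Casc1 (-0.10 to 1.60) spread widely. At CS16 embryo 3 is lowest for each gene.

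Among all 12656 features, 72 (0.569%) had a CS17 mean more than 1.5-fold higher in the FL, and all 4 genes were among them, as the match required. Syt13 ranked 3, Casc1 7, Kpna3 27 and Taok3 32 by the size of this mean. A higher FL value in 4 of 4 embryos was seen at 9.51% of all features and in 3 of the 4 genes. FL arrays all above HL arrays were seen at 4.35% of all features and in 2 of the 4 genes, Taok3 and Syt13. The SD of the difference over embryos exceeded that of 97.0% of features for Syt13, 98.3% for Kpna3 and 99.2% for Casc1, but only 16.4% for Taok3. The median SD of all features was 0.25. Of the 30 listed probes that matched exactly 1 row, Taok3 had the smallest SD over CS17 embryos and Casc1 the second largest. Among those 30 probes the mean CS17 difference of Syt13 was next below that of Hoxd11 (1.22), a homeobox gene of limb patterning, and that of Kpna3 next below that of Hapln1 (0.72), which encodes a cartilage link protein. These probes had been listed by the study from the same arrays.

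At CS16 the mean limb differences stayed below 1.5-fold and changed sign between embryos, again as the match fixed for the means. Of all features, 2.14% had a lower mean than Casc1, 5.81% than Syt13, 21.6% than Taok3 and 51.4% than Kpna3. The FL minus HL difference of Taok3 was 0.05, 0.08, -0.43 and -0.04 in embryos 1 to 4, a mean of -0.08 ± 0.24 (SD, n = 4). For Syt13 it was 0.49, 0.42, -1.17 and -0.60, a mean of -0.22 ± 0.81 (SD, n = 4). For Kpna3 it was 0.51, 0.35, -0.88 and 0.12, a mean of 0.03 ± 0.63 (SD, n = 4). Kpna3 and Syt13 thus had values of either direction in single CS16 embryos, each from 1 array per limb. For Casc1 it was 0.08, -0.48, -0.76 and -0.12, a mean of -0.32 ± 0.38 (SD, n = 4), lower in the FL in 3 of 4 embryos. Embryo 3 had the lowest difference for all 4 genes. A fold above 1.5 in either direction was reached by 0.221% of all features at CS16 and by 0 of the 4 genes. Limbs without overlap of their arrays in either direction were seen at 5.09% of all features and in 0 of the 4 genes. With 1 replicate left out in turn, the mean CS16 difference ranged between -0.14 and 0.03 for Taok3, -0.45 and 0.10 for Syt13, -0.14 and 0.33 for Kpna3 and -0.46 and -0.17 for Casc1. The upper value came without replicate 3 for each gene. The lower came without replicate 1 for Syt13, Kpna3 and Casc1 and without replicate 2 for Taok3.

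The change of the limb difference between the stages follows from these values and was not tested. It was 0.77 for Taok3 (standard error 0.14), 1.24 for Syt13 (0.51), 0.68 for Kpna3 (0.46) and 1.16 for Casc1 (0.43) on the log2 scale. Only for Taok3 did every CS17 embryo lie above every CS16 embryo, a pattern of 2.4% of all features. Without replicate 4 the change was 0.75, 0.87, 0.47 and 1.07 in the same order of genes, and without replicate 3 it was 0.63, 0.82, 0.25 and 0.76. Without replicate 1 it was 1.03 for Kpna3.

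The stage means of the 4 genes differed by limb. The stages were different embryos, and differences between the genes were not tested. Taok3 differed between the stages in the FL, with a mean of 1.22 ± 0.22 at CS17 and 0.53 ± 0.20 at CS16 (SD, n = 4 each), and the arrays did not overlap. In the HL its means were 0.54 ± 0.23 at CS17 and 0.61 ± 0.18 at CS16 (SD, n = 4 each), which overlapped. For Casc1 the HL differed between the stages, with 1.66 ± 0.38 at CS17 and 2.61 ± 0.20 at CS16 (SD, n = 4 each), and the arrays did not overlap. In the FL its means were 2.49 ± 0.41 at CS17 and 2.29 ± 0.21 at CS16 (SD, n = 4 each), within overlapping ranges. CS17 FL arrays all above CS16 FL arrays were seen at 3.14% of all features, and CS17 HL arrays all below CS16 HL arrays at 6.23%.

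Syt13 lay between these patterns, whereas Kpna3, like Casc1, had its larger stage difference in the HL. Syt13 averaged 1.98 ± 0.19 in the CS17 FL and 1.38 ± 0.42 in the CS16 FL, and 0.96 ± 0.47 in the CS17 HL and 1.60 ± 0.45 in the CS16 HL (SD, n = 4 each). Its stage difference was thus positive in the FL (0.60) and negative in the HL (-0.64), with overlapping arrays in both limbs. Kpna3 averaged 2.10 ± 0.16 in the CS17 FL and 2.24 ± 0.29 in the CS16 FL, and 1.39 ± 0.55 in the CS17 HL and 2.21 ± 0.49 in the CS16 HL (SD, n = 4 each). Its stage difference of -0.14 for FL arrays was smaller than that of -0.82 for HL arrays, again with overlap in both. Without replicate 3 the FL stage difference was 0.35 for Syt13 and -0.04 for Casc1, and without replicate 2 it was 0.01 for Kpna3. Without replicate 4 the HL stage difference was 0.10 for Taok3, -0.32 for Syt13, -0.55 for Kpna3 and -0.91 for Casc1. These stage differences share the CS17 arrays that chose the genes, so they are descriptions with no test. In whole autopods, fewer cells of a type and less RNA per cell cannot be told apart.

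The level of the CS16 arrays against the mouse was not among the 3 folds of the match and was tested, but it shares the mouse pool, the dyes and the probe with the CS17 FL fold over the mouse that was used. All 4 genes were higher in CS16 bat autopods than in the mouse FL pool, with an adjusted p under 0.05 from limma over all 12656 features for the mean of both limbs. That call was made in the same direction at 36% of all features, so it is common on these arrays. Of the 1356 features more than 2-fold above the mouse in the CS17 FL, as all 4 genes were chosen to be, 1355 (99.9%) had the same call at CS16, so the calls are nothing particular to these genes. Casc1 had a log2 ratio of 2.45 with a standard error of 0.11, or 5.46-fold (adjusted p = 1.32e-11, limma). Kpna3 had 2.23 with a standard error of 0.13, or 4.68-fold (adjusted p = 6.09e-10, limma). Syt13 had 1.49 with a standard error of 0.13, or 2.81-fold (adjusted p = 4.9e-08, limma). Taok3 had 0.57 with a standard error of 0.08, or 1.48-fold (adjusted p = 5.42e-06, limma). Each of these ratios was positive on all 8 CS16 arrays. The fit counted these arrays separately, although they came from 4 embryos. With FL and HL of each embryo averaged first, the adjusted p ranged from 5.71e-10 for Casc1 to 1.82e-04 for Taok3 (limma).

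Set against all features, the CS16 ratio of Casc1 exceeded that of 99.2%, Kpna3 98.9%, Syt13 94.8% and Taok3 79.2%, and the median feature had a log2 ratio of -0.09. An adjusted p under 0.01 together with a fold above 2 in the bat was reached by 11.8% of all features and by Syt13, Kpna3 and Casc1, but not by Taok3. By limb, the same stricter call was made at 11.6% of all features in the CS16 FL and 12.3% in the CS16 HL, again with Syt13, Kpna3 and Casc1 among them and not Taok3. Within each limb, the call at an adjusted p under 0.05 was made for all 4 genes in the CS16 FL (32.9% of all features) and in the CS16 HL (33% of all features). In the FL the adjusted p ranged from 3.87e-09 for Casc1 to 4.68e-04 for Taok3, and in the HL from 8.9e-10 to 1.15e-04, from limma. Of the other 26 listed probes with exactly 1 row, 17 were higher and 6 lower in CS16 bat autopods and 3 did not pass. The same test called 4552 of all 12656 features higher and 5955 lower, so most features pass it. The test leaves out the spread among mice, since all mouse RNA came from 1 pool. Because the dyes were never swapped and the probes are of mouse sequence, a ratio to the mouse cannot separate transcript level from dye or probe mismatch effects.

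**Figure D3:**
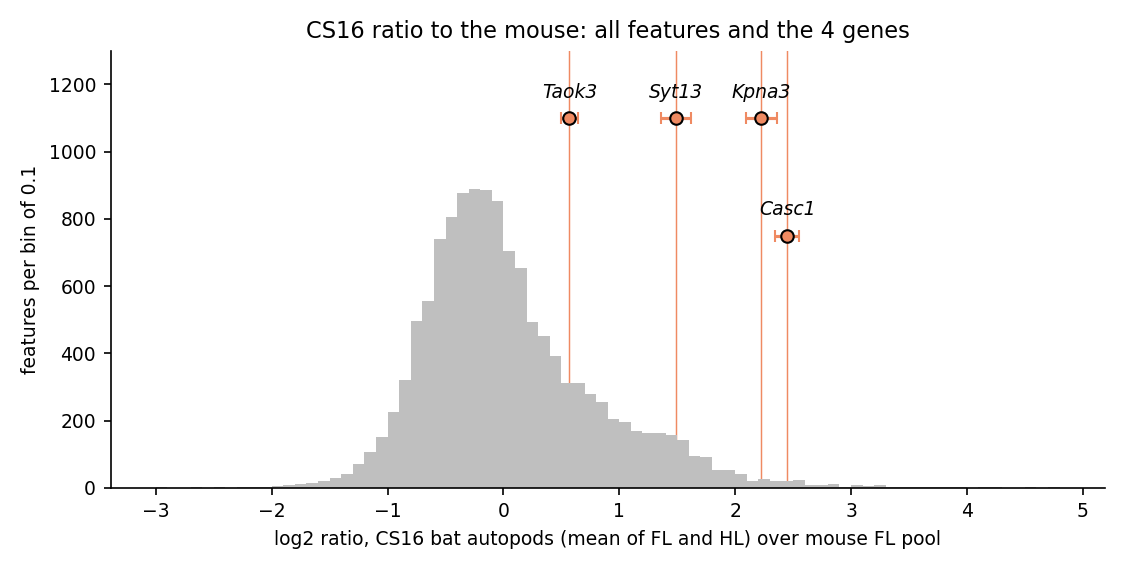
Number of features in bins of 0.1 (vertical axis) by log2 ratio of CS16 bat autopods over the mouse FL pool, the mean of both limbs (horizontal axis), with the 4 genes as points with standard errors, placed at arbitrary heights. Taok3 (0.57) lies on the upper slope of the distribution, and Syt13 (1.49), Kpna3 (2.23) and Casc1 (2.45) lie in its upper tail.

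At CS17 the genes stayed above the mouse in both limbs, by values that the match used or fixed. In the CS17 FL the folds over the mouse were 2.34 for Taok3, 3.95 for Syt13, 4.30 for Kpna3 and 5.63 for Casc1. A fold above 2 there was reached by 10.7% of all features. In the CS17 HL the folds were 1.45, 1.95, 2.63 and 3.15 in the same order, and 9.2% of all features exceeded 2. Kpna3 and Casc1 thus exceeded 2-fold in both CS17 limbs. Syt13 lay close to 2-fold in the CS17 HL, where its log2 ratio was 0.96, against 1.07 with arrays centred on their median and 1.17 without replicate 4.

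The scatter between arrays of a group was not used in the match, although the study may have weighed it when it listed the probes. The SD within groups was 0.40 for Syt13, 0.40 for Kpna3, 0.31 for Casc1 and 0.21 for Taok3, against a median of 0.16 over all features. Syt13 and Kpna3 exceeded 99.0% and 99.1% of features, Casc1 95.2% and Taok3 75.1%. Features high in the bat scatter more, and among the 1494 features more than 2-fold higher at CS16 the median SD was 0.21. Against those 1494, the percentile was 97.5 for Syt13, 97.7 for Kpna3, 88.7 for Casc1 and 49.1 for Taok3. Syt13 and Kpna3 thus scattered widely also for features of high ratio, while Taok3, which is not 1 of the 1494, lay near their median.

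The array-to-array deviations of Syt13 and Kpna3 ran together. After the group means were taken out, their deviations correlated at 0.90 over the 16 arrays, and at 0.86 with replicate 4 of the CS17 HL left out. Deviations of Taok3 correlated at 0.71 with Syt13 and 0.74 with Kpna3 (0.60 and 0.64 without that array). Those of Casc1 correlated at 0.61 with both Syt13 and Kpna3 (0.52 and 0.53 without it). The lowest value was 0.34, between Taok3 and Casc1, and it was 0.19 without that array. Deviations of the median of the 1494 features high in the bat correlated with those of the 4 genes at 0.21 for Kpna3, 0.28 for Syt13, 0.33 for Taok3 and 0.44 for Casc1. All points share their arrays, the mouse pool and the normalisation, and the correlations are descriptions. They were not set against those of other pairs of features, so how common such values are is not known here. Over the raw values of the 16 arrays, the most similar feature to Casc1 was row 13231 (r = 0.94) and to Kpna3 row 33947 (r = 0.93), both without a name. The highest correlation was 0.91 for Syt13 and 0.90 for Taok3, also with features without a name.

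**Figure D4:**
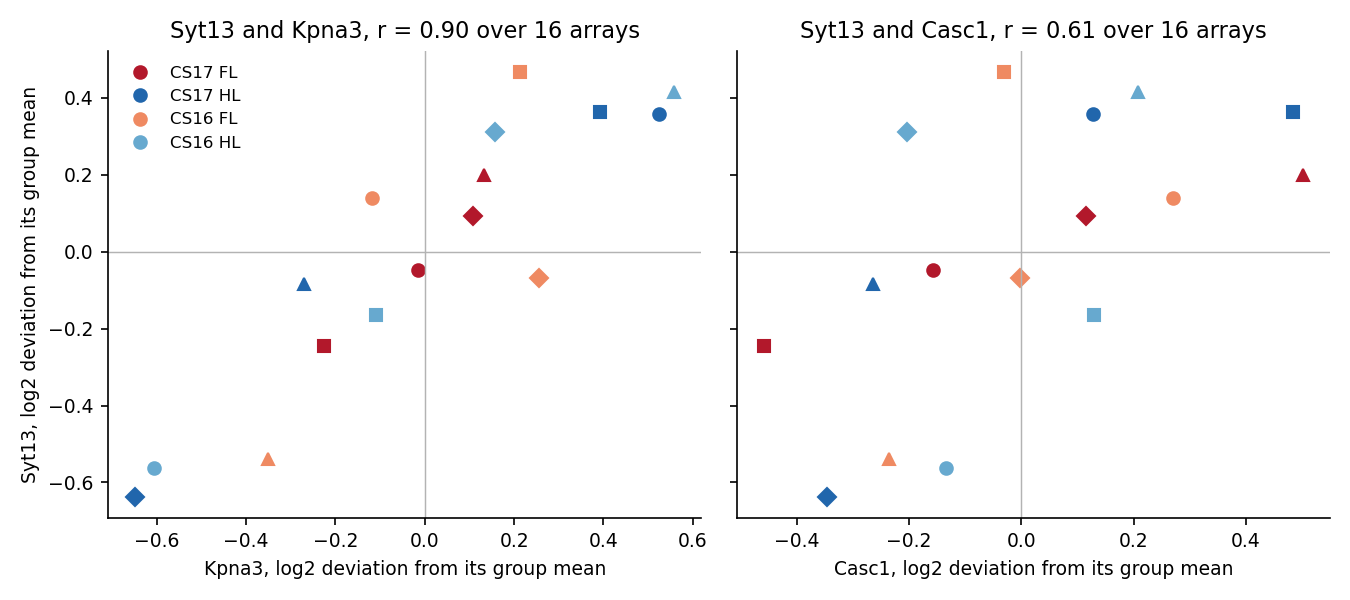
Deviation of Syt13 from its group mean on the log2 scale (vertical axis) against that of Kpna3 (left, horizontal axis) and Casc1 (right, horizontal axis) on the 16 arrays, coloured by group, with circles, squares, triangles and diamonds for replicates 1 to 4. Syt13 and Kpna3 lie along a line (r = 0.90), and Syt13 and Casc1 scatter more (r = 0.61).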

How the data were processed

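The authors read the slides with GenePix and pre-processed the signals in R. Of their stated steps, batch correction and imputation bear most on the spread between replicates, and quality and variance filters on which features have values. The deposited table holds log ratios, read here as log2. The study reports 5200 probes after filtering, and the deposited table holds values for more rows, so it had not passed every filter. Which of the other steps it had passed, which of its values were imputed and how it was centred is not given in the sources used here. Ranks and percentiles here thus refer to a larger set than the study's. Of 37440 rows, 13988 had values, on all 16 arrays. Rows that repeated another row's values exactly were dropped, leaving 12656 features. The sign was turned before any step.

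CS16 ratios were tested by moderated fits over all 16 arrays with labelling batch as a term (limma 3.58.1, R 4.3.3) with Benjamini-Hochberg adjustment over all features. Each replicate number is a labelling batch per the labels, and the paper's sample list ties FL and HL of a number to 1 embryo. Over all features, the deviations of an embryo's FL and HL arrays from their group means correlated between -0.38 and 0.08. Most of these values were negative, which widens the spread of a difference within an embryo. The fit was tested on simulated data. Values were tabulated with pandas 2.3.3 and numpy 2.4.6 and drawn with matplotlib 3.10.9 under Python 3.11.15. Members and lists were chosen with earlier results of these data known. The genes named were the 4 members, their most correlated features and neighbours among listed probes. The number of arrays limits the precision, and signal over background was not analysed here. No sequence of the probes was used here.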

Additional observations from a re-analysis of the deposited data

How the results depend on the processing

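With an adjusted p under 0.01 and a fold above 2 as the threshold, Taok3 was not called at CS16 (log2 ratio 0.57 for the mean of both limbs, 0.53 in the FL and 0.61 in the HL). All other 145 tested alternatives for the 4 genes kept the direction and an adjusted p under 0.05 from limma. These were no replicate block, CS16 arrays only, median centring, quantile normalization, every row as a feature, the 5200 most variable features, robust moderation, the mean of FL and HL per embryo, the stricter threshold for the other 3 genes, and each replicate left out. The highest adjusted p among them from limma was 0.00603, for Taok3 in the CS16 FL. With no replicate block the adjusted p of Taok3 for the mean of both limbs was 4.19e-07 from limma, at the same log2 ratio of 0.57. With FL and HL of each embryo averaged first, that adjusted p from limma was 1.82e-04, again at 0.57. Averaging FL and HL per embryo gives no value for a single limb. Among the 5200 most variable features, the percentile of the CS16 ratio was 64.5 for Taok3, 90.7 for Syt13, 97.8 for Kpna3 and 98.6 for Casc1. The described values moved by less than 1 SD between replicates with median centring and quantile normalization. Leaving out a replicate or taking the median of 4 can hardly move a mean by that much, so those alternatives say little by that measure. With a replicate left out, the change of the limb difference ranged between 0.25 and 1.03 for Kpna3, and several small stage and CS16 limb differences changed sign. Exactly 1 row was matched by 2 of the 4 probes at a tolerance of 0.2, by 0 with the sign as deposited, by 0 with the values read as natural log and by 2 read as log10, in the last case other rows than the 4 used.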
